A study of Mus musculus with 24 samples.

Results

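The clustered protocadherins are cell-surface proteins of the cadherin family whose genes lie in 3 tandem arrays, the alpha, beta and gamma clusters, on mouse chromosome 18. The members described here are the genes whose symbols begin with Pcdha, Pcdhb or Pcdhg followed by the number or letter of an array member, 58 of the 27179 genes in the deposited table. The alpha cluster gave 14 members (chromosome 18, 36930285 to 37188897), the beta cluster 22 (37264998 to 37521419) and the gamma cluster 22 (37661775 to 37841873), with positions from the RefSeq gene table of GRCm38.p6, the assembly of mm10. They were divided by type into 12 alternate alpha genes, 22 beta genes, 12 gamma A genes, 7 gamma B genes and 5 C-type genes, which are Pcdhac1 and Pcdhac2 at the end of the alpha cluster and Pcdhgc3, Pcdhgc4 and Pcdhgc5 at the end of the gamma cluster.

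Each alpha and gamma gene has its own promoter and large first exon, which is spliced to constant exons shared by all genes of that cluster, whereas beta genes lack such shared exons. In neurons a cell switches on a small random choice of the alternate genes, largely through promoters that bind CTCF and loop to distant enhancers, while C-type genes are used more uniformly across neurons. The resulting mix of proteins binds only to the same mix on another cell, by which neurites of one neuron recognise and avoid each other. The promoters of Pcdhac2, Pcdhgc4 and Pcdhgc5 lack the sequence element that most other promoters of the clusters share.

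Chromatin immunoprecipitation with sequencing was used to measure H3K27Ac, the acetylation of histone H3 on lysine 27 that marks enhancers and promoters in use, in the brain, heart, kidney and liver of mice. The tissue was either snap-frozen and then crosslinked in 1% formaldehyde for 30 min (Frozen), or fixed in 10% formalin, embedded in paraffin and extracted at 95 °C for 20 min (FFPE). No genotype, strain, age, sex or number of animals is given in the sources used here, and the labels name no treatment other than the preservation. The table holds 1 column, taken here as 1 library, for every organ in each preservation, 8 in all, so organs were compared over 2 preservations and preservations over 4 organs, and p-values measure only the spread between these libraries, which may be technical.

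The libraries had total counts between 4404789 and 6164562, and the members together held 37020 counts. In the brain libraries 11 of 12 neuron markers were called higher (summed level 741 to 1170 CPM, counts scaled to library size, against 222 to 351 in the other organs), as were 8 of 8 cardiomyocyte markers in heart, 7 of 8 nephron markers in kidney and 8 of 8 hepatocyte markers in liver. No marker was at 0 counts in a library, so markers of each organ's cells also gave counts in the other organs. Fewer cells of a type and less of the mark per cell cannot be told apart in such tissue libraries.

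**Figure D1:**
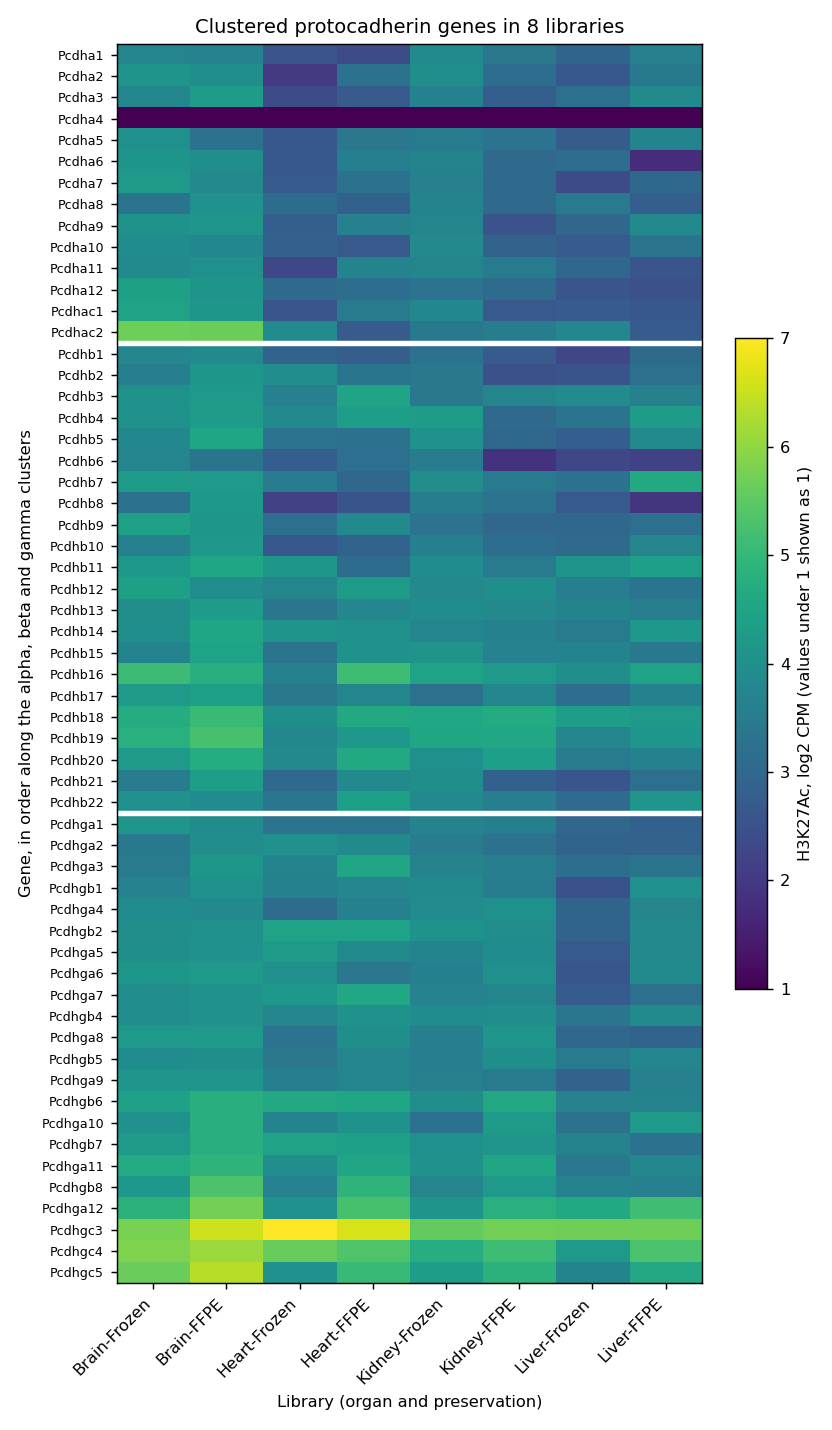
H3K27Ac of the 58 clustered protocadherin genes (rows, in order along the alpha, beta and gamma clusters) in the 8 libraries (columns), as log2 CPM (counts scaled to library size), with white lines between clusters. Pcdhac2 is brighter in the brain columns than in the others, Pcdhgc3 is brightest in the heart columns, and Pcdha4 is dark throughout, with 7 counts in all.

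Summed over its genes, each cluster was higher in brain than the mean of the other organs in each preservation, by the most in the alpha cluster. The alpha cluster held 246 CPM in Frozen brain (95% Poisson interval 234 to 259) and 237 in FFPE brain (224 to 251), against 89.7 to 166 in the other 6 libraries. This was 2.06 times the mean of the other 3 organs among Frozen and 2.07 times among FFPE libraries. The beta cluster held 385 and 462 CPM in Frozen and FFPE brain and 229 to 339 elsewhere, ratios of 1.44 and 1.53. The gamma cluster held 488 and 663 in brain and 266 to 527 elsewhere, ratios of 1.32 and 1.50. Both brain libraries lay above all others for the alpha and beta clusters. For the gamma cluster the intervals of Frozen brain (470 to 507), Frozen heart (466 to 507) and FFPE heart (506 to 549) met or overlapped. Intervals cover counting error only, and no test was made on these sums.

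**Figure D2:**
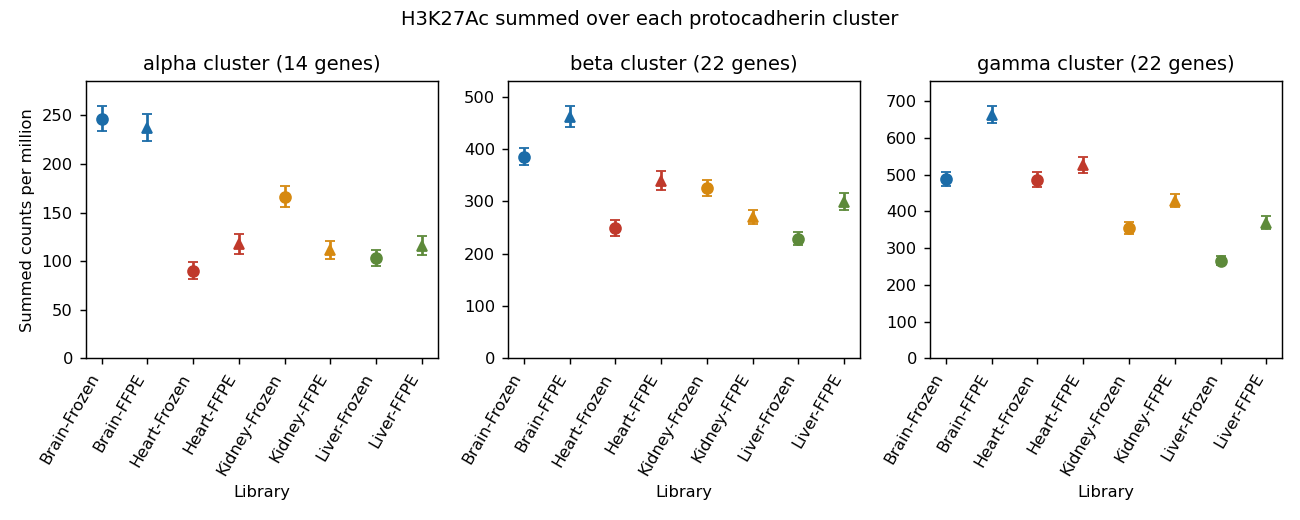
CPM summed over the genes of each cluster (vertical axis) in each library (horizontal axis), with circles for Frozen and triangles for FFPE and bars for the 95% Poisson interval, which covers counting error only. Both brain libraries stand above the other 6 in the alpha cluster (237 and 246 against 89.7 to 166) and, by less, in the beta cluster, whereas in the gamma cluster Frozen brain (488) lies level with Frozen heart (486) and below FFPE heart (527).

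Gene by gene, 15 of the 58 members were called higher in brain than in the mean of the other organs (limma, adjusted p under 0.05 over 26944 genes), where 8.73% of all genes tested were, and 0 were called lower, where 13.6% of all genes were. The estimate was above 0 for 58 of 58 members, against 52.1% of all genes, and the members' median difference was 0.62 on the log2 scale, against 0.04 for all genes. Brain exceeded the other organs' mean for 52 members among Frozen libraries (53.4% of all genes) and for 55 among FFPE libraries (49.7%). Without adjustment 28 members had p under 0.05. The called genes were 3 of 12 alternate alpha, 5 of 22 beta, 2 of 12 gamma A, 1 of 7 gamma B and 4 of 5 C-type genes, with median differences of 0.89, 0.61, 0.61, 0.31 and 1.34 in the same order. For 21 members both brain libraries lay above all 6 others, which holds for 13.1% of all genes: 6 alternate alpha, 6 beta, 5 gamma A, 0 gamma B and 4 C-type genes. Of the markers of other cells of the nervous system, 6 of 7 oligodendrocyte and 4 of 7 astrocyte genes were called higher in brain by limma. The other 3 astrocyte genes had estimates below 0, down to -0.61, and 2 astrocyte genes, Aldh1l1 and Sox9, were called lower in brain than in liver. Olig1, of the oligodendrocyte genes, was also called higher in liver than in the other organs. Schwann cell and peripheral nerve genes had 0 of 6 called higher, with estimates between -0.67 and 0.05. Of these, 5 were below 0, and 1 lower gene had an unadjusted limma p under 0.05. The part of neuron and glia markers in the members' differences was not tested.

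These counts moved with the fit. The share of all genes called in each alternative fit is not given here. A loss of calls among the members therefore cannot be told apart from a loss over all genes. Without the Frozen brain library 3 members were called (Pcdhac2, Pcdhb8 and Pcdhgc5), and with a prior variance that has no trend on the level 3 were (Pcdha12, Pcdhac2 and Pcdhgc5), while 6 were without FFPE brain or without FFPE kidney, 8 without Frozen heart, and 13 to 19 without each of the other 4 libraries. Olfactory receptor genes, a large family that is silent in most tissues and was taken up as a reference after seeing the data, were themselves higher in brain, with a median of 0.55 over 1126 genes and 1000 of them above 0. With all libraries set to the same olfactory receptor median, which moves the all-gene median in brain to -0.47, the members' median was 0.11, 34 of 58 lay above 0, the gamma B median was -0.20, and 2 members were called, Pcdhac2 and Pcdhgc5.

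**Figure D3:**
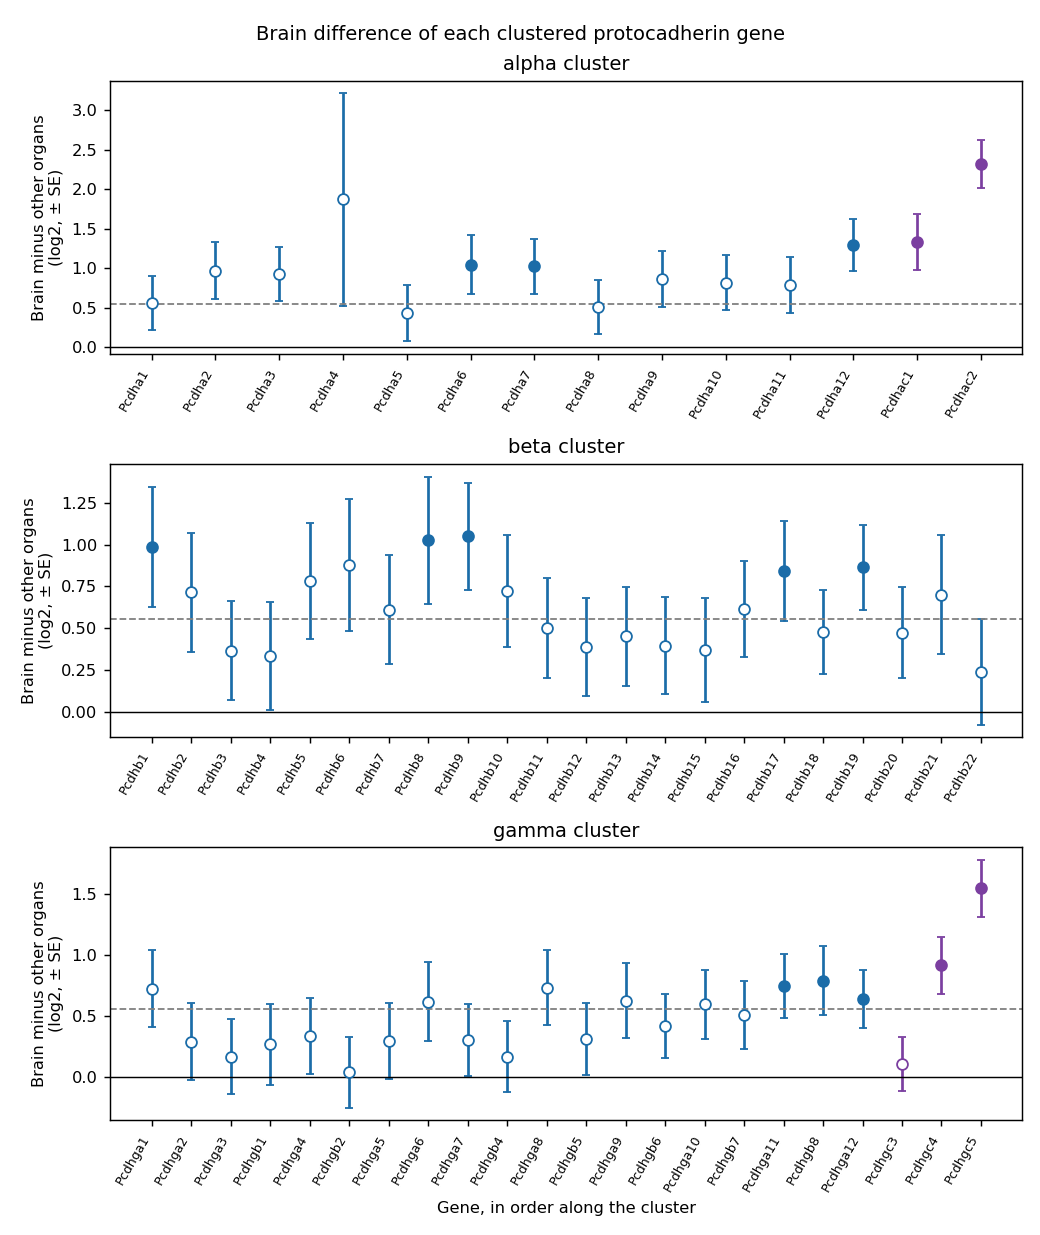
Brain minus the mean of the other 3 organs (log2, vertical axis) for each gene in order along its cluster (horizontal axis), as the limma estimate with its standard error; filled points were called at an adjusted p under 0.05 and purple points are C-type genes. The dashed line is the olfactory receptor median of 0.55, and Pcdhac2 (2.32) and Pcdhgc5 (1.55) stand farthest above it among the called genes.

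The largest brain difference among the members was that of Pcdhac2, a C-type gene at the end of the alpha cluster. Pcdhac2, which is required for the even spreading of serotonergic axons, had log2 CPM values of 5.69 in Frozen and 5.65 in FFPE brain, 3.89 and 2.73 in heart, 3.42 and 3.52 in kidney, and 3.77 and 2.74 in liver. Its brain libraries thus lay well apart from the other 6, with 297 and 241 counts against 28 to 77. The difference was 2.32 ± 0.30 (SE; limma adjusted p = 6.7e-07), and it was called against heart (2.36 ± 0.37), kidney (2.20 ± 0.37) and liver (2.41 ± 0.37) singly.

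Pcdhac1, its neighbour in the cluster, had 4.47 in Frozen and 4.17 in FFPE brain, 2.59 and 3.46 in heart, 3.80 and 2.67 in kidney, and 2.73 and 2.64 in liver. Both brain libraries were above all others, with Frozen kidney nearest. The difference was 1.34 ± 0.36 (limma adjusted p = 0.0056), and it was called against heart and liver but not against kidney (1.08 ± 0.44, limma adjusted p = 0.12). Without the Frozen brain library it was 1.24 and no longer called.

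Among the gamma C-type genes the 3 neighbours differed in pattern. Pcdhgc5 had 5.63 in Frozen and 6.35 in FFPE brain, 4.05 and 5.06 in heart, 4.37 and 4.87 in kidney, and 3.70 and 4.62 in liver. Brain was highest in each preservation, and the FFPE library was the higher one in each organ. The brain difference was 1.55 ± 0.23 (limma adjusted p = 6.8e-06), and it was called against each other organ singly (1.44, 1.37 and 1.83, each ± 0.29, for heart, kidney and liver).

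Pcdhgc4, which is known for its role in the survival of interneurons, had 5.85 and 6.11 in Frozen and FFPE brain, 5.60 and 5.34 in heart, 4.75 and 5.14 in kidney, and 4.25 and 5.30 in liver. The brain libraries were the highest, with heart close below. The difference of 0.92 ± 0.23 was called (limma adjusted p = 0.0039), as it was against kidney and liver, but not against heart (0.51 ± 0.29, limma adjusted p = 0.21), and without the Frozen brain library it was 0.85 and no longer called.

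Pcdhgc3, which is known to be expressed in many tissues besides neurons, was instead highest in heart. It had 7.10 in Frozen and 6.63 in FFPE heart, 5.79 and 6.56 in brain, 5.57 and 5.71 in kidney, and 5.70 and 5.69 in liver. Both heart libraries were above the other 6, though FFPE brain lay just under FFPE heart. The heart difference was 1.03 ± 0.22 (limma adjusted p = 8.8e-04), while the brain difference of 0.11 ± 0.22 was not called (limma adjusted p = 0.77) and had opposite signs in the 2 preservations, -0.34 among Frozen and 0.55 among FFPE libraries. Without the Frozen heart library the heart difference was 0.64 and no longer called, and without a variance trend it was not called either.

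**Figure D4:**
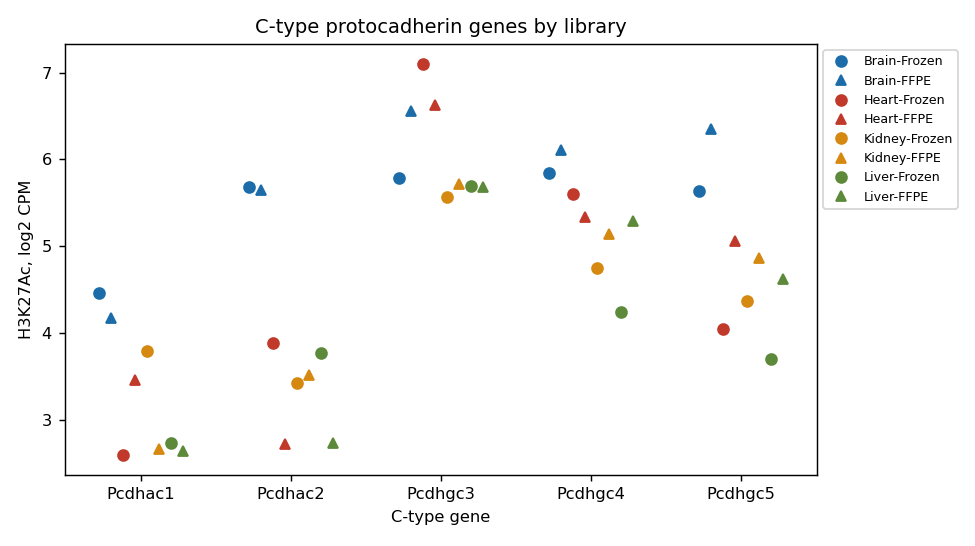
Log2 CPM (vertical axis) of the 5 C-type genes (horizontal axis) in each library, with circles for Frozen and triangles for FFPE and 1 colour per organ. Brain is clearly apart for Pcdhac2 (5.65 and 5.69 against at most 3.89), is highest for Pcdhac1, Pcdhgc4 and Pcdhgc5, and lies under both heart libraries for Pcdhgc3.

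The 12 alternate alpha genes had brain differences above 0, between 0.43 and 1.87, with the highest in Pcdha4, which was nearly without counts. Pcdha12, the alternate gene nearest to Pcdhac1 and the one with the largest difference among those with at least 20 counts, had 4.41 and 4.10 in Frozen and FFPE brain, 3.08 and 3.16 in heart, 3.30 and 3.11 in kidney, and 2.61 and 2.48 in liver. Its brain libraries lay above all others. The difference was 1.30 ± 0.33 (limma adjusted p = 0.0038), and 1.18 and not called without the Frozen brain library.

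Pcdha6 and Pcdha7 were the other called genes, at 1.05 ± 0.37 (limma adjusted p = 0.039) and 1.03 ± 0.35 (limma adjusted p = 0.030). Pcdha9, which held the most counts of the alternate alpha genes, had a difference of 0.86 ± 0.36 that was not called (limma adjusted p = 0.080), although it was called in 4 of 15 other settings. Pcdha5, with the smallest difference, had 4.02 and 3.24 in brain against 2.64 to 3.70 elsewhere, a difference of 0.43 ± 0.35 (limma adjusted p = 0.42). Against heart alone, 4 alternate alpha genes were called higher in brain (Pcdha1, Pcdha2, Pcdha3 and Pcdha12), and against liver 3 were (Pcdha6, Pcdha7 and Pcdha12), while 0 were against kidney, with 2 at an unadjusted p under 0.05. These are 33.3%, 25.0% and 0.0% of the group, where 8.42%, 11.3% and 4.70% of all genes were called higher against heart, liver and kidney.

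Pcdha4 had 7 counts in FFPE brain and 0 in each of the other 7 libraries, whereas every other alpha gene had 414 or more counts summed over the libraries. The table also holds Gm37013, a RefSeq gene that begins 41 bases before Pcdha4 and extends to the end of the gamma cluster, and it had 0 counts in all libraries. The rule by which reads over overlapping genes were assigned is not stated in these sources, so the values of alpha and gamma members, whose spans overlap, are uncertain in their assignment, and their levels were not compared per length. The span of Pcdha1 covers nearly all of that of Pcdhac2, yet Pcdha1 held 419 counts and Pcdhac2 held 860, so a member's counts did not include all reads over its span.

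The spans of beta genes do not overlap one another but lie within that of Gm37013. Beta genes had small and similar brain differences, between 0.24 and 1.05 on the log2 scale. Pcdhb9 had the largest, with 4.43 and 4.17 in Frozen and FFPE brain, 3.19 and 3.86 in heart, 3.30 and 2.98 in kidney, and 3.01 and 3.18 in liver. Brain was highest in each preservation, with FFPE heart next. The difference of 1.05 ± 0.32 was called (limma adjusted p = 0.016) but not without FFPE brain (1.27), Frozen brain (0.83) or FFPE kidney (0.96).

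The other called beta genes were Pcdhb1, Pcdhb8, Pcdhb17 and Pcdhb19, with differences between 0.84 and 1.03. Pcdhb18, with the most counts, had a difference of 0.48 ± 0.25 (limma adjusted p = 0.18). Pcdhb22, with the smallest, had 4.03 and 3.91 in brain within a range of 3.10 to 4.38 elsewhere, a difference of 0.24 ± 0.32 (limma adjusted p = 0.62). Against single organs 3 of 22 beta genes were called higher in brain than in heart (13.6%, against 8.42% of all genes). Against kidney 0 were (4.70% of all genes), and against liver 6 were (27.3%, against 11.3% of all genes).

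Per length of their spans of 2340 to 5271 bases, the median beta gene had 4.86 and 6.39 CPM per kb in Frozen and FFPE brain and 2.79 to 4.39 in the other libraries. The median of 910 olfactory receptor genes of 906 to 1100 bases was 5.13 and 4.89 in the same brain libraries and 2.54 to 4.70 in the others. In each library the median beta gene lay within the middle range (quartiles) of that reference, except in FFPE brain, where 6.39 was above the upper quartile of 6.24. Pcdhb20 had the highest mean over libraries, 5.27 CPM per kb, and Pcdhb6 the lowest, 2.20.

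The gamma A genes had the same median brain difference as the beta genes to 2 decimals, 0.61, and the gamma B genes had the lowest of the groups, 0.31. Pcdhga11, the gamma A gene with the largest, had 4.68 and 4.90 in Frozen and FFPE brain, 3.93 and 4.53 in heart, 4.08 and 4.55 in kidney, and 3.37 and 3.77 in liver. Brain was highest, and liver lowest, in each preservation. The difference of 0.75 ± 0.26 was called (limma adjusted p = 0.036), but not without either brain library (0.88 without FFPE, 0.61 without Frozen), Frozen heart (0.71), FFPE kidney (0.76) or Frozen kidney (0.74).

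Pcdhgb8, the called gamma B gene, had 4.19 and 5.32 in Frozen and FFPE brain, against 3.60 to 4.91 elsewhere, so that Frozen brain lay below FFPE heart and FFPE kidney. Its difference was 0.79 ± 0.29 (limma adjusted p = 0.042). That of Pcdhga12, the gamma A gene with the most counts, was 0.64 ± 0.24 (limma adjusted p = 0.048). Each lost its call when any 1 of 6 libraries was left out (either brain, either kidney, Frozen heart or FFPE liver), where Pcdhgb8 had 0.51 to 1.07 and Pcdhga12 0.55 to 0.68. The smallest differences were 0.17 ± 0.31 for Pcdhga3 (limma adjusted p = 0.74) and 0.04 ± 0.29 for Pcdhgb2 (limma adjusted p = 0.94), and Pcdhgb6, the gamma B gene with the most counts, had 0.42 ± 0.26 (limma adjusted p = 0.27).

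Along the gamma cluster the brain difference was larger toward the C-type end, with a Spearman correlation with gene order of 0.53 over 22 genes and 0.58 over the 19 genes without C-type. In the alpha cluster it was 0.51 over 13 genes and 0.18 over the 11 without C-type, and in the beta cluster -0.24 over 22 genes. Across 57 members the brain difference among Frozen libraries and that among FFPE libraries had a Pearson correlation of 0.41, and 0.09 over the 52 without C-type. The points of these correlations share the same libraries. Gamma spans shorten along the cluster, and total counts had a Spearman correlation with span of -0.88 over the 22 gamma genes. Position, count level and read assignment therefore cannot be told apart there. Against single organs, brain was called higher for 10 members than heart (8.42% of all genes), for 3 than kidney (4.70%; Pcdhac2, Pcdhgc4 and Pcdhgc5) and for 20 than liver (11.3%), and lower for 0 in each (12.7%, 6.23% and 15.0%), with 20, 11 and 27 members at an unadjusted p under 0.05. These comparisons share the brain libraries. With quantile scaling 7 members were called against kidney and with the same median and spread 8.

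In heart, 2 members were called higher than in the other organs, Pcdhgc3 and Pcdhga7 (9.42% of all genes), and 2 lower, Pcdha1 and Pcdha3 (7.31%). Pcdhga7 had 4.19 and 4.59 in Frozen and FFPE heart and 2.73 to 4.05 elsewhere, a difference of 0.83 ± 0.29 (limma adjusted p = 0.046). Its call was lost when any 1 library other than FFPE liver was left out (0.75 to 0.92). Pcdha1, with 2.59 and 2.39 in heart and 2.94 to 3.87 elsewhere, differed by -1.04 ± 0.34 (limma adjusted p = 0.032). Pcdha3, with 2.37 and 2.73 in heart and 2.79 to 4.30 elsewhere, differed by -1.04 ± 0.35 (limma adjusted p = 0.034). Pcdha1 lost its call without either heart library, Frozen brain, Frozen kidney or FFPE liver, one at a time (-0.89 to -1.16). Pcdha3 lost it without either heart library, FFPE brain, Frozen kidney or FFPE liver (-0.82 to -1.17), and both lost it with quantile scaling (-0.83 and -0.84). The estimate for heart was below 0 in 14 of 14 alpha genes and above 0 in 14 of 22 gamma genes. Of all 26944 genes, 14223 were below 0 and 12721 above 0 in heart. Among 1126 olfactory receptor genes 880 were below 0. With libraries at the same olfactory receptor median, the alternate alpha median in heart turned from -0.40 to 0.06. Summed cardiomyocyte markers (913 to 997 CPM in heart, 119 to 151 elsewhere) and endothelial markers (714 to 733 against 209 to 367) were higher in heart. So were fibroblast and smooth muscle markers (383 to 401 against 211 to 290). The part of these markers in the members' heart differences, which went in both directions, was not tested.

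In kidney 0 members were called higher (3.19% of all genes) and 0 lower (2.03%) by limma, with 2 at an unadjusted p under 0.05 and a median of -0.05. In liver 12 members were called lower (9.73% of all genes) and 0 higher (11.2%), with 52 of 58 estimates below 0, against 54.3% of all genes, and a median of -0.55. The lower genes were 2 alternate alpha (Pcdha6, Pcdha12), 1 beta (Pcdhb20), 3 gamma A (Pcdhga7, Pcdhga8, Pcdhga11), 3 gamma B (Pcdhgb2, Pcdhgb6, Pcdhgb7) and 3 C-type (Pcdhac2, Pcdhgc4, Pcdhgc5) genes. For 12 members both liver libraries lay below all 6 others (8.94% of all genes).

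Pcdhga7 had the largest of these differences, -1.06 ± 0.29 (limma adjusted p = 0.0079), with 2.73 and 3.22 in Frozen and FFPE liver. Pcdhgc5 differed by -0.89 ± 0.23 (limma adjusted p = 0.0046) and Pcdhga11 by -0.87 ± 0.26 (limma adjusted p = 0.014). Without a trend in the prior variance 3 members were called lower in liver, Pcdha12, Pcdhga7 and Pcdhga11, and Pcdhgc5 was not. Frozen liver was the library with the lowest member sum (598 CPM against 785 to 1362 elsewhere). Without it, none of Pcdhga7, Pcdhgc5 and Pcdhga11 was called (-0.91, -0.80 and -0.89). Without FFPE liver Pcdhga11 was also not called (-0.86), and with libraries at the same olfactory receptor median 0 members were called by limma and their liver median was -0.34. Neuron markers were called lower in liver for 6 of 12 genes, and their part in these differences was not tested.

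Comparing FFPE with Frozen, with the organs as replicates, 2 of 58 members were called higher (3.45%, near the 2.0% of all genes). None were called lower (1.91% of all genes). Estimates were above 0 for 46 of 58, against 52.2% of all genes, with a median of 0.22. Both called genes lie at the C-type end of the gamma cluster. Pcdhga12 had 4.86 in Frozen and 5.75 in FFPE brain, 4.03 and 5.26 in heart, 4.11 and 4.81 in kidney, and 4.65 and 5.15 in liver. FFPE was the higher library in each organ, by 0.50 to 1.23. The difference was 0.83 ± 0.20 (limma adjusted p = 0.013). Pcdhgc5, whose values are given above, differed by 0.79 ± 0.20 (limma adjusted p = 0.019), with FFPE higher by 0.50 to 1.01 in 4 of 4 organs. Neither was called without a trend in the prior variance, with libraries at the same olfactory receptor median (0.68 and 0.64), without either heart library (0.70 and 0.71) or without FFPE kidney (0.87 and 0.88). Pcdhga12 was also lost without Frozen kidney (0.87), and Pcdhgc5 without either liver library (0.74). For 11 members FFPE was higher in 4 of 4 organs (11.8% of all genes), 7 of them gamma cluster genes, and for 0 it was lower in all (10.4%). The 11 include Pcdha4, which had 0 counts in both libraries of heart, kidney and liver. Its differences in those organs reflect only the library sizes.

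**Figure D5:**
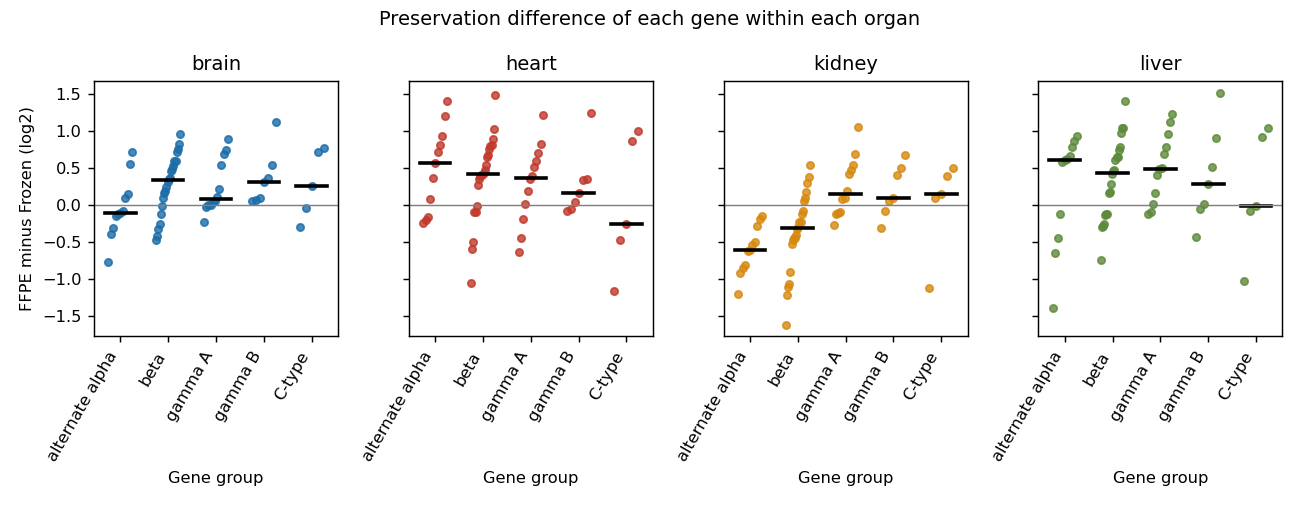
FFPE minus Frozen (log2, vertical axis) of each gene within each organ (panels), by gene group (horizontal axis), with black bars for group medians; each point compares 2 libraries. Pcdha4, with under 20 counts, is not drawn. The median of the other alternate alpha genes is above 0 in heart and liver and below 0 in kidney, whereas the gamma A and gamma B medians are above 0 in all 4 organs.

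Within organs the clusters differed in this respect. Alpha sums were 0.96 times as high in FFPE as in Frozen brain (95% Clopper-Pearson interval 0.89 to 1.04), 1.31 in heart (1.15 to 1.49), 0.67 in kidney (0.60 to 0.74) and 1.13 in liver (1.00 to 1.27). Beta sums had ratios of 1.20, 1.36, 0.83 and 1.31 in the same order, and gamma sums 1.36, 1.09, 1.21 and 1.39. Kidney thus stood apart for alpha and beta, where FFPE was lower, and not for gamma. Olfactory receptor genes had median differences of -0.07, 0.45, -0.29 and 0.48 (log2) in brain, heart, kidney and liver, so they too were lower in FFPE kidney and higher in FFPE heart and liver. Neuron markers summed to 1170 CPM in FFPE and 741 in Frozen brain. The part of these markers in the preservation differences was not tested. With plain total counts as library size the gamma ratio in heart turned to 0.86.

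Of 23 tested genes that encode regulators of the clusters or of chromatin (such as CTCF and cohesin subunits), 0 were called higher (8.73% of all genes) and 2 lower in brain by limma, or 8.70% of the list, below the 13.6% of all genes, with 3 at an unadjusted p under 0.05. The 2 were Ehmt2, a histone H3 lysine 9 methyltransferase, by -0.90 ± 0.22 (limma adjusted p = 0.0028), and Wapl, which releases cohesin from DNA, by -0.72 ± 0.21 (limma adjusted p = 0.013). Against single organs Ehmt2 was called lower in brain than in each of the 3, and Wapl only than in liver, where it had 7.75 in Frozen and 6.86 in FFPE against 5.97 to 6.76 in the other libraries. The median over this list was -0.20. Of 13 partner and downstream genes, 2 were called higher in brain (15.4%, against 8.73% of all genes), Wasf1 at 1.14 ± 0.25 (limma adjusted p = 7.5e-04) and Cyfip2 at 0.67 ± 0.20 (limma adjusted p = 0.014), both encoding subunits of the WAVE complex that drives actin branching. Cyfip2 was highest in kidney, up to 7.17 in FFPE kidney, with both kidney libraries above the 6.78 and 6.92 of Frozen and FFPE brain and the 5.58 to 5.81 of heart and liver. It was also called higher in kidney than in the other organs (0.98 ± 0.20, limma adjusted p = 0.0015). Against single organs Wasf1 was called higher in brain than in heart and kidney, and Cyfip2 than in heart and liver.

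Of the 22 tested genes that flank the clusters within 300 kb or lie between them, 9.09% were called higher and 31.8% lower in brain, against 8.73% and 13.6% of all genes. The 2 higher genes were Rell2 (1.21 ± 0.28) and Fchsd1 (0.75 ± 0.23), both beyond the gamma cluster, and 7 were lower (Eif4ebp3, Sra1, Apbb3, Cd14, Ik and Vaultrc5 before the alpha cluster, and Arap3 beyond the gamma cluster), with differences between -0.68 and -1.44 and a list median of -0.38. Taf7, a general transcription factor gene between the beta and gamma clusters, had -0.39 ± 0.22 (limma adjusted p = 0.21).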

How the data were processed

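The deposited table gives, for each gene and library, a log2 value that the authors scaled to library size. Bowtie2, featureCounts, limma and build mm10 were used, per the submitters' processing notes; versions, the part of a gene counted and the handling of reads over overlapping genes are not stated in these sources. Read as log2 of a count to which 0.5 was added, scaled to a library size of 0.7495 to 1.2246 times the total (log2 CPM), 100% of values in every column gave whole numbers (tolerance 0.001), so depth and counting error could be stated. The labels describe 2 H3K27Ac samples per group and 8 inputs. They also name separate ChIP runs and alternative library kits. The columns carry no replicate number, so neither runs nor kits can be matched to them and comparisons may mix them; inputs were not analysed here.

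Genes at 0 counts in all libraries (235) were removed. limma 3.58.1 (R 4.3.3) was fitted to the other 26944 with organ and preservation as additive terms (3 residual degrees of freedom). The prior variance had a trend, and p-values had Benjamini-Hochberg adjustment. The fit was also run on simulated counts with a fixed spread and changes in brain only. That run does not show how the fit performs on these libraries. Each organ was compared with the mean of the other 3. Sums over clusters have exact Poisson intervals and ratios Clopper-Pearson intervals, at 95%, for counting error only. All 58 members matched the RefSeq table. Zfp274, of the regulator list of 24, was not in the table.

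Genes were named by rule: the C-type genes; per group the largest and smallest brain difference among members with at least 20 counts and the most counts; and up to 3 members per direction with the smallest adjusted p elsewhere. The members, lists and tests were chosen with earlier results of these data known. The alternatives were quantile scaling, equal median and spread, at least 10 counts in 2 libraries, 2 added to each count, no variance trend, voom weights, each library left out, plain totals and the sum without its top gene; the olfactory receptor scaling was chosen after seeing the data. A result from the list of partner and downstream genes is not reported here.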

Additional observations from a re-analysis of the deposited data

Results flagged for a closer look

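The FFPE to Frozen ratio of a cluster's summed counts went in opposite directions in different organs, with each organ represented by 1 library per preservation, and the difference between organs was not tested. For the alpha cluster the ratio was 1.31 in heart and 0.667 in kidney. For the beta cluster it was 1.20 in brain, 1.36 in heart and 1.31 in liver, against 0.828 in kidney. In kidney the FFPE library was the lower one for 12 of 14 alpha genes and 16 of 22 beta genes. It was the higher one for 13887 of all 26944 genes tested, but for only 415 of 1126 olfactory receptor genes. The alpha genes that were not lower were Pcdha4, with 0 counts in both kidney libraries, and Pcdhac2, with 60 counts in each.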

How the results depend on the processing

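No paired analysis was possible because the columns carry no replicate number; FFPE was compared with Frozen within organs through the organ term. Pcdhac2 and Pcdhgc5 were called higher in brain in 15 of 15 alternatives, with 1.81 to 2.65 and 1.04 to 1.73. Without a variance trend, 3 members were higher in brain, 0 higher and 0 lower in heart, 3 lower in liver and 0 higher in FFPE. Members lower in heart numbered 0 with quantile scaling, 1 with equal median and spread and 0 with voom weights, which gave 4 higher in FFPE; brain against kidney gave 7 and 8 with the first 2. With the olfactory receptor scaling, chosen after seeing the data, 2 were higher in brain, 5 higher and 0 lower in heart, 0 lower in liver and 0 higher in FFPE, and brain was higher than heart for 1 and lower for 2, higher than kidney for 1 and higher than liver for 2.

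Leaving out each library in turn gave 3 to 19 members higher in brain, 0 to 3 higher and 0 to 4 lower in heart, 0 to 1 lower in kidney, 3 to 11 lower in liver and 0 to 2 higher in FFPE. Brain was higher than heart for 2 to 13 and lower for 0 to 1, higher than kidney for 1 to 5 and than liver for 8 to 22.

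With plain total counts the brain ratios (Frozen, FFPE) were 2.42 and 2.33 for alpha, 1.71 and 1.73 for beta and 1.60 and 1.72 for gamma. The FFPE to Frozen ratios in brain, heart, kidney and liver became 0.819, 1.03, 0.567 and 1.27 for alpha, 1.02, 1.08, 0.704 and 1.48 for beta, and 1.15, 0.858, 1.03 and 1.57 for gamma, where heart reversed. Without its top gene the alpha brain ratios were 1.82 and 1.75, the gamma brain ratio among Frozen libraries 1.49 and the gamma heart FFPE to Frozen ratio 1.23. The cause of these changes was not tested beyond the fewer libraries or genes that some settings hold. For the counts of called members, the share of all genes called in each alternative fit is not given here. With 1 library per group and a median gene at 87 to 119 counts, small differences were not detectable.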

Other observations

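The non-clustered protocadherins, single genes with their own constant parts that act in cell sorting and axon growth, had a median brain difference of 0.72 over 12 genes. Of these 5 were called higher in brain (41.7%, against 8.73% of all genes) and 1 lower (8.33%, against 13.6%). Pcdh9 had 6.28 and 6.53 log2 CPM in Frozen and FFPE brain and 4.30 to 4.89 in the other libraries, a difference of 1.88 ± 0.23 (limma adjusted p = 1.7e-07). Pcdh10 had 7.14 and 7.02 in brain and 5.11 to 5.81 elsewhere, a difference of 1.53 ± 0.20 (limma adjusted p = 1.0e-06). Both were apart from all other libraries. Pcdh8 (1.44), Pcdh20 (0.92) and Pcdh15 (0.80) were also called higher. Pcdh20 was highest in Frozen liver (6.56), above Frozen brain (6.03) and FFPE brain (5.86), with 5.28 in FFPE liver. It was also called higher in liver than in the other organs (0.89 ± 0.24, limma adjusted p = 0.0057).

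Pcdh12, a protocadherin of endothelial cells, was the one lower gene, with 5.54 and 5.52 in Frozen and FFPE brain and 6.51 to 7.51 elsewhere, a difference of -1.56 ± 0.21 (limma adjusted p = 1.5e-06). The 7 endothelial markers summed to 209 and 212 CPM in the brain libraries and 267 to 733 in the others, and 5 of them were called lower in brain. Their part in the Pcdh12 difference was not tested.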
